A study of Mus musculus with 8 samples.

Results

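The Kruppel-like factor genes described here are 10 mouse genes (Klf3, Klf4, Klf5, Klf6, Klf7, Klf9, Klf10, Klf11, Klf13 and Klf15), out of 21883 protein-coding genes on the assembled chromosomes. They were chosen by symbol with the peaks at them already known, so their peaks are a description and carry no test. A peak was assigned to a gene when its centre lay inside the gene's RefSeq span or within 5000 bp of it, which gave 107 of the 109670 peaks listed. The study mapped chromatin occupancy in mouse oligodendrocytes, the myelin-forming cells of the brain, by chromatin immunoprecipitation and sequencing (ChIP-seq). The differentiated cells derived from FvB/C57BL6 hybrid neural stem cells at passage 7, and all of them carried introduced PPARb with an HA tag. Their medium held B-27, GlutaMAX-I, IGF-1 and the thyroid hormone T3. The isolated cells came from C57BL6 brain by selection on O4 beads, at passage 0. Libraries from differentiated cells used antibodies to Qki-5 (the nuclear form of the RNA-binding protein quaking), PPARb (a lipid-sensing nuclear receptor), the HA tag and RNA polymerase II (Pol II), plus an input. Isolated cells gave Qki-5, PPARb and input libraries. The PPARb antibody can bind native and introduced receptor alike, and the promoter driving the introduced gene, the age of the animals and the number pooled are not given in the sources used here. Cell kind, strain, culture and the introduced receptor differ together and cannot be told apart.

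Kruppel-like factors are transcription factors whose zinc fingers bind GC-rich and CACCC-type DNA, and members of the family compete for similar sites. Klf3 recruits the corepressor CtBP. Klf4, Klf5, Klf6 and Klf7 act mostly as activators. Klf9, Klf10, Klf11 and Klf13 bind the corepressor Sin3. Klf9 is a thyroid hormone-responsive gene, Klf10 and Klf11 respond to transforming growth factor beta, and Klf15 is a glucocorticoid-responsive regulator of metabolism. In oligodendrocytes, Klf6 and Klf9 have been tied to differentiation and myelination.

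Each of the 8 groups had 1 library, so no value has a replicate check. The antibody libraries held 12624236 to 24880851 tags, of which 0.116% (isolated PPARb) to 4.62% (HA) lay in peaks. On chromosomes 1 to 19, X and Y the lists held 1391 peaks for isolated PPARb, 8375 for isolated Qki-5 and 13267 to 30175 in differentiated cells. Height is the number of tags in a 200 bp peak per 10000000 tags, and ranks run from the tallest peak of a list. Intervals are 95% exact Poisson intervals and cover counting error only. In bulk chromatin, occupancy in fewer cells and weaker occupancy per cell cannot be told apart. Of 10 oligodendrocyte marker genes, 4 had a Pol II peak and 9 an isolated Qki-5 peak (47.5% and 35.7% of all protein-coding genes). Differentiated Qki-5, PPARb and HA peaks were at 4, 5 and 6 of them (61.2%, 57.3% and 60.6% of all genes). Of 4 neuron and 4 astrocyte markers, 3 of each had a Pol II peak in differentiated cells, and 0 of either had a peak in the isolated lists. Differentiated Qki-5, PPARb and HA peaks were at 4, 3 and 4 neuron markers and at all 4 astrocyte markers. Of 3 endothelial markers, 3 had an isolated Qki-5 peak. Isolated PPARb peaks were at 3 of the 10 oligodendrocyte markers, 1 of 3 microglia markers and 0 of 3 endothelial markers (7.57% of all genes). In differentiated cells, endothelial markers with a peak numbered 2 (Qki-5), 1 (PPARb), 1 (HA) and 1 (Pol II). The part of such cells in the values at the Kruppel-like factor genes was not tested.

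The promoters of 4 members are shown, picked after their values were seen. Klf11 had the tallest promoter peak and the only promoter window with peaks of all 6 libraries, Klf15 had 3 E-boxes, Klf13 had a GC box overlapping a CACCC box, and Klf9 had no GC box. They are the 250 bases before the start, credited to RefSeq (GRCm38.p6), at chr19:23140976-23141225 (plus strand, Klf9), chr12:24651121-24651370 (plus, Klf11), chr7:63938916-63939165 (minus, Klf13) and chr6:90462326-90462575 (plus, Klf15). Capitals mark the GC box GGGCGG, or its reverse complement CCGCCC, and the E-box CACGTG.
Klf9: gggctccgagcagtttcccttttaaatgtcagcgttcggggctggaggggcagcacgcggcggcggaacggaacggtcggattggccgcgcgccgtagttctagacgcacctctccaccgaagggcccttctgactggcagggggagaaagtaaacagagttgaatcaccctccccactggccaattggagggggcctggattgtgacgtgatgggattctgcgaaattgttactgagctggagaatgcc
Klf11: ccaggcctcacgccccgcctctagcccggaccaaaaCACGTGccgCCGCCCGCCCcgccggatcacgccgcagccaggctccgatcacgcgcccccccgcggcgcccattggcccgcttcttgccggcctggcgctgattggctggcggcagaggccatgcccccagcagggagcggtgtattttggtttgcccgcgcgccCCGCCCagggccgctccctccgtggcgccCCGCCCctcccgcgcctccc
Klf13: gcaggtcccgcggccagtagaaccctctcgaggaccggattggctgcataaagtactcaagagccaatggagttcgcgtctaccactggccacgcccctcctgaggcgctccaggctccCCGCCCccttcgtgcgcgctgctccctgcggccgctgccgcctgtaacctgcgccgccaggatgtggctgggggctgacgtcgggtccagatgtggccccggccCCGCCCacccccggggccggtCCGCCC
Klf15: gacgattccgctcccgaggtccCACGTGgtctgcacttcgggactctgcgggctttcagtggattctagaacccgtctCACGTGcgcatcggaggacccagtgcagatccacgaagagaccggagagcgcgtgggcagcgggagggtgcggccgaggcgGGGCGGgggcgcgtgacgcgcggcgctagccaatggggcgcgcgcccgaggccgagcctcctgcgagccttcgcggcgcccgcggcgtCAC
Klf11 showed 4 GC boxes, the first 2 overlapping each other, and Klf13 showed 3. Klf15 showed 3 E-boxes, the last straddling the start so that only its opening letters are printed, and Klf9 showed neither motif. Of 21262 promoter windows (250 bases before to 50 after the start), 46.2% held a GC box and 0.108% held 3 E-boxes. Of the 8 members with a promoter entry, 7 held a GC box. The E-box occurred in 7.84% of all windows and in 4 of the 8 (Klf4, Klf6, Klf11 and Klf15). The CACCC box CCACCC, which family members bind, occurred in 33.6% of windows and in 3 of the 8 (Klf3, Klf7 and Klf13), overlapping a GC box in Klf13. The nuclear receptor core motif AGGTCA occurred in 14.7% of windows and in 0 of the 8, and the TATA box TATAAA in 12.6% and 0 of the 8. TGACG, part of the cyclic AMP response element, occurred in 23.6% of windows and in 5 of the 8, and overlapped the last E-box of Klf15. Both strands were searched.

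In differentiated cells all 10 members had Qki-5, PPARb and HA peaks, beside 61.2%, 57.3% and 60.6% of all protein-coding genes. Qki-5 and PPARb peaks together thus occurred at 10 members (55.4% of all genes). Pol II peaks were listed at 9 members (47.5% of all genes), Klf5 being the exception, and these 9 had peaks in all 4 differentiated lists (44.7%). In isolated cells, Qki-5 peaks were listed at 9 members (35.7% of all genes), again without Klf5, and PPARb peaks at 5 (7.57%). The same 5 members, Klf6, Klf10, Klf11, Klf13 and Klf15, had peaks of both factors in isolated cells (6.99% of all genes) and in every list (6.26%). Of the 10 members, 6 had 2 or more Qki-5 peaks (29.6% of all genes), 7 had 2 or more PPARb peaks (25.7%) and 6 had 2 or more HA peaks (30.2%). Nothing is read from these shares, because the rule used the peaks. Among the 10397 genes with a Pol II peak, 98.3% had a Qki-5 peak, 95.8% a PPARb peak and 98.4% an HA peak in differentiated cells, and all 9 members with Pol II had each. Within that set, isolated Qki-5 and PPARb peaks were listed at 63.6% and 14.4% of genes, and at 9 and 5 of the 9 members.

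**Figure D1:**
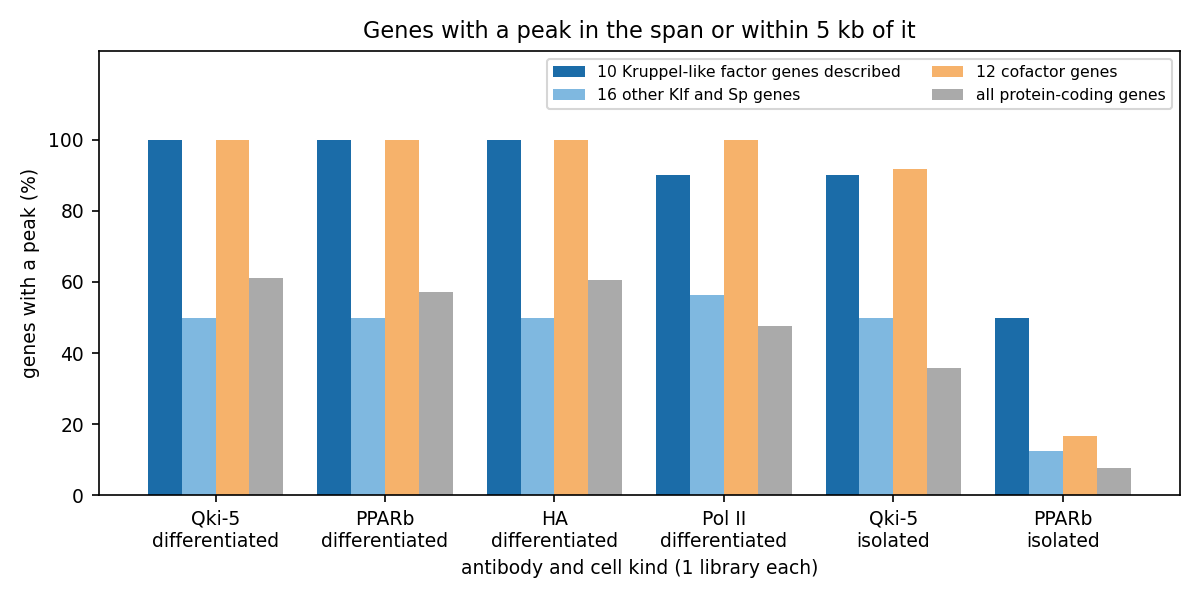
Share of genes (%) with a peak in the span or within 5 kb, for each antibody and cell kind, in the 10 members, the 16 other Klf and Sp genes, 12 cofactor genes and all protein-coding genes. Bars come from 1 library each, so they have no error bars. The members stand at 100% in 3 lists and at 50% for isolated PPARb.

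Within 1000 bp of the start, 10 members had a Qki-5 peak, 8 PPARb, 9 HA and 9 Pol II in differentiated cells, beside 48.3%, 44.0%, 48.6% and 38.1% of all genes. In isolated cells 9 had Qki-5 and 3 PPARb at the start (27.4% and 5.2% of all genes). For Klf5 and Klf10, which have no promoter entry, the nearer gene end served as the start. A promoter entry exists for 17491 of the 21883 genes. For the rest, a peak at either gene end counted in the shares of all genes. The tallest peak ranked in the top 1% of its list for 1 member in Qki-5 (Klf10), 1 in PPARb (Klf10), 2 in HA (Klf10 and Klf11) and 1 in Pol II (Klf7), beside 1.86%, 1.17%, 1.22% and 0.759% of all genes. It did so for 0 members in either isolated list (0.553% and 0.0731%). The median height of member peaks in differentiated cells was 13.25 (Qki-5), 9.79 (PPARb), 15.8 (HA) and 11.3 (Pol II), beside list medians of 11.1, 9.79, 13.5 and 8.84. Klf10, Klf11 and Klf7 were thus the members with peaks in the top 1% of a list.

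**Figure D2:**
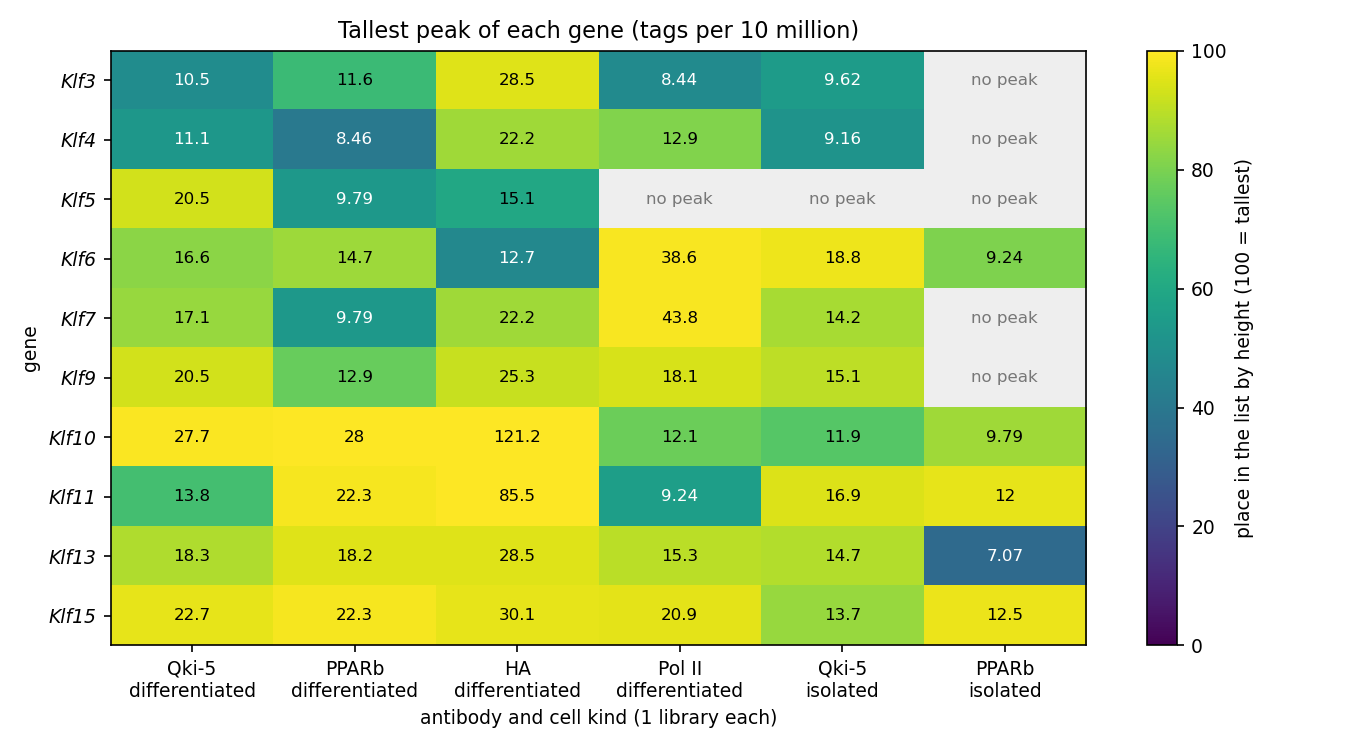
Height of the tallest peak of each gene (number in each cell, tags per 10000000) by antibody and cell kind, 1 library each. Color gives the place within that library's list, 100 being the tallest. Klf10 and Klf11 stand at the top in HA (121.2 and 85.5), Klf6 and Klf7 in Pol II (38.6 and 43.8).

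**Figure D3:**
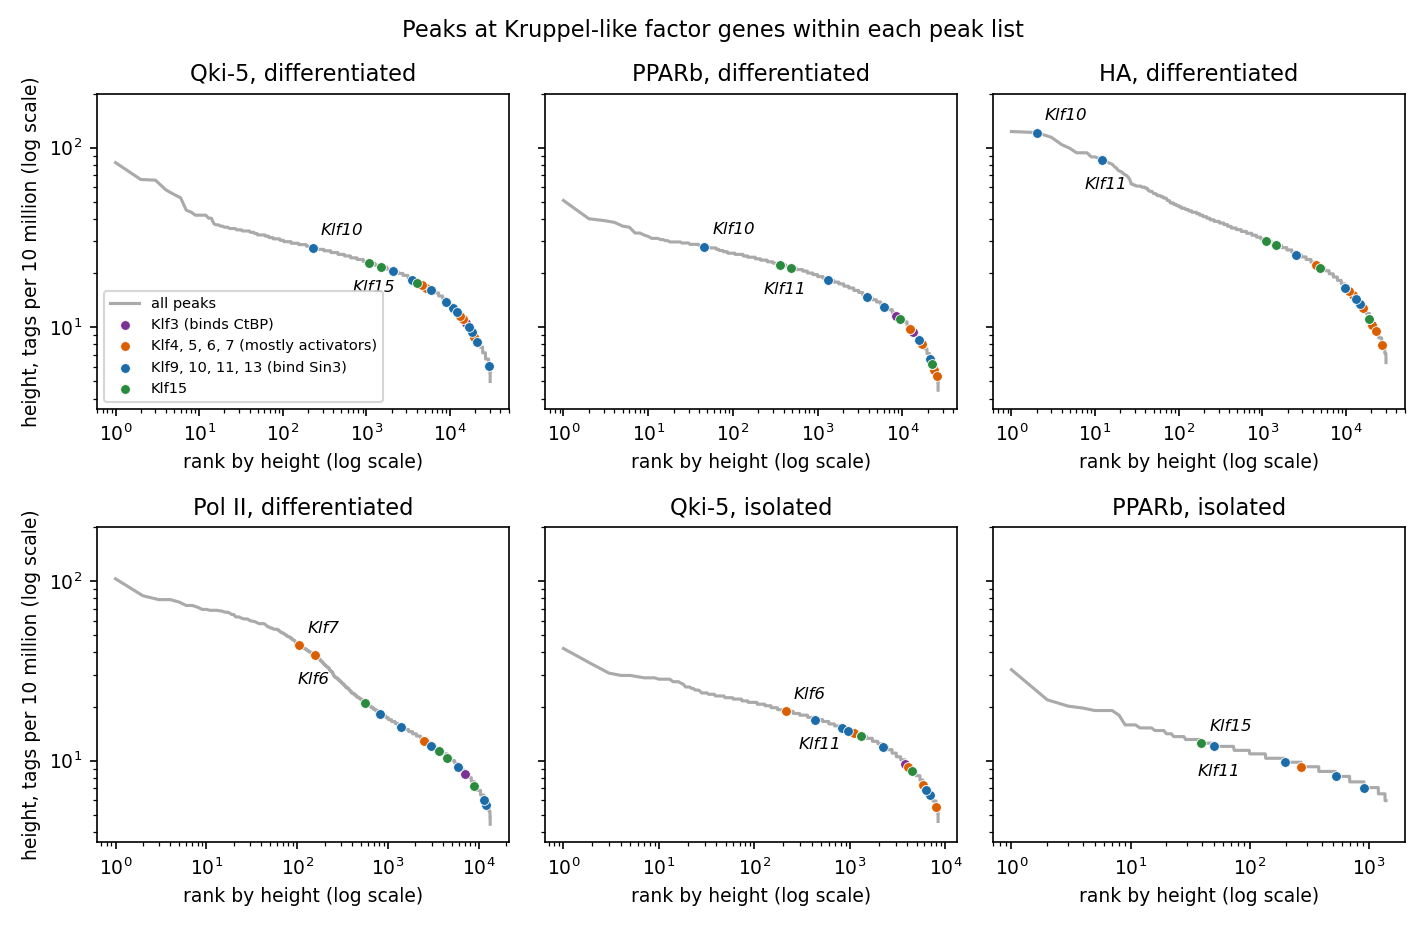
Height against rank (both log scales) for all peaks of each list (gray line), with all member peaks as points colored by subfamily. In the HA panel Klf10 is the second point of the curve, at 121.2, while most members lie on its lower slope.

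Klf3, which has roles in fat and blood cells, spans chr5:64803521-64832901. In differentiated cells its start site held Qki-5 at 10.5, PPARb at 11.6, HA at 28.5 and Pol II at 8.44, and in isolated cells Qki-5 at 9.62. The HA peak ranked 1461 of 30037, and the others stood in the middle of their lists. No isolated PPARb peak was listed. The start peaks also lie inside the coding gene model Gm38457, so they belong to either gene.

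Klf4, a pluripotency factor, spans chr4:55527137-55532475, and all of its peaks lay within 115 bp of the start. The Qki-5 peak stood at 11.1, PPARb at 8.46, HA at 22.2, Pol II at 12.9 and isolated Qki-5 at 9.16. Klf5, known from epithelium and vascular smooth muscle, spans chr14:99298691-99313412. It had Qki-5 at 20.5, PPARb at 9.79 and HA at 15.1 beside its nearer end, and a further PPARb peak of 8.01 inside the gene. It was the member without Pol II or any isolated-cell peak, and its PPARb to Qki-5 height ratio of 0.478 was low: 97.9% of overlapping pairs had an equal or higher one.

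Klf6 spans chr13:5861489-5870393. Its start held Pol II at 38.6 (rank 155), Qki-5 at 16.6 and HA at 12.7 in differentiated cells. In isolated cells the start held Qki-5 at 18.8 (rank 212 of 8375) and PPARb at 9.24 (rank 271 of 1391). No differentiated PPARb peak lay at the start. That list placed its taller peak, of 14.7, inside the gene, 2228 bp after the start, overlapping a Qki-5 peak of 11.6. Its other peak, of 5.79 (rank 23858 of 26404), lay 8489 bp after the start.

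Klf7, a factor known from neurons and axon growth, spans chr1:64029448-64122345. Its Pol II peak of 43.8 (95% interval from 36.0, rank 104) was the tallest Pol II peak among the members. The nearest gene end held Qki-5 at 17.1, PPARb at 9.79, HA at 22.2 and isolated Qki-5 at 14.2. A second HA peak of 15.8 lay at the RefSeq start. The 6 peaks deep in the gene were low, from 5.34 to 9.51, and 4 of them overlapped no other peak. The start region lies inside the long noncoding RNA gene Gm35880, so the genes cannot be told apart.

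Klf9 spans chr19:23141226-23168129. Its start held HA at 25.3, Qki-5 at 20.5 and PPARb at 12.9 in differentiated cells, with isolated Qki-5 at 15.1 (rank 821). Pol II stood at 18.1 (rank 820), 55 bp after the start and apart from the other peaks. No isolated PPARb peak fell inside the window. Peaks of 5 libraries lay just outside it, with HA at 17.4 (5080 bp from the span), Qki-5 at 12.2, PPARb at 10.7, isolated Qki-5 at 13.7 and isolated PPARb at 7.07 (6119 bp). Of peaks outside the spans, 38 lay 19 to 2605 bp away and were counted, and 19 others within 10000 bp lay 5080 to 8886 bp away and were not counted.

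Klf10 spans chr15:38291464-38300711 and held the tallest member peak of the HA, PPARb and Qki-5 lists of differentiated cells. In isolated cells the tallest member peaks were at Klf6 for Qki-5 (18.8) and at Klf15 for PPARb (12.5). The HA peak at chr15:38299202-38299402 had a height of 121.2 (95% interval 103 to 142) and ranked 2 of 30037. PPARb peaks of 28 in differentiated cells (rank 46) and 9.79 in isolated cells (rank 196) had centres 4 and 8 bp from it. The 3 receptor peaks were stacked 1401 to 1409 bp inside the gene. The Qki-5 peak of 27.7 (rank 227) ended 18 bp short of the HA peak and so did not overlap it. On the other side, a Pol II peak of 11.3 (rank 3653) began 58 bp beyond the HA peak, also without overlap. A separate site at the gene end held Qki-5 at 16, Pol II at 12.1, isolated Qki-5 at 11.9 and isolated PPARb at 8.16. All of these also lie inside the noncoding gene Gm35248.

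Klf11 spans chr12:24651371-24662782. The HA peak of 85.5 (95% interval 70.2 to 103) ranked 12 of 30037 and lay 141 bp before the start. Qki-5 at 13.8, PPARb at 22.3 (rank 357), isolated Qki-5 at 16.9 and isolated PPARb at 12 (rank 50) were stacked with it, 128 to 157 bp before the start. Pol II, at 9.24, lay 80 bp after the start. Its peak began 8 bp beyond the end of the isolated Qki-5 peak and so was not merged with the stack. All 5 stacked peaks overlap the printed Klf11 promoter. A further group lay 8776 to 8886 bp from the span, outside the window, with HA at 49.9 (rank 78), PPARb at 27.1 (rank 64), Qki-5 at 22.1 and Pol II at 14.1.

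Klf13, a close relative of Klf9, spans chr7:63886351-63938915. Its start held Qki-5 at 18.3, PPARb at 18.2 (rank 1334), HA at 28.5, Pol II at 15.3 and isolated Qki-5 at 14.7. Its isolated PPARb peak, 7.07 (rank 909 of 1391), was not at the start but 27022 bp into the gene. The merged site there also held Qki-5 at 12.2, PPARb at 14.7, HA at 16.6 and Pol II at 6.03 (rank 11303 of 13267). The isolated PPARb peak overlapped the Qki-5 and PPARb peaks, but not those of HA or Pol II.

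Klf15 spans chr6:90461043-90491803 and, by overlap of 1 bp or more, held the only member site with peaks of all 6 lists. There, 1065 to 1196 bp after the start, Qki-5 stood at 22.7, PPARb at 21.4, HA at 30.1, Pol II at 10.4, isolated Qki-5 at 13.7 and isolated PPARb at 12.5 (rank 39 of 1391). The start itself held Qki-5 at 17.7, PPARb at 11.1, HA at 21.4, Pol II at 20.9 and isolated Qki-5 at 8.7. A site 8639 to 8762 bp after the start, with Qki-5 at 21.6, PPARb at 22.3, HA at 28.5 and Pol II at 7.23, had no isolated-cell peak.

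**Figure D4:**
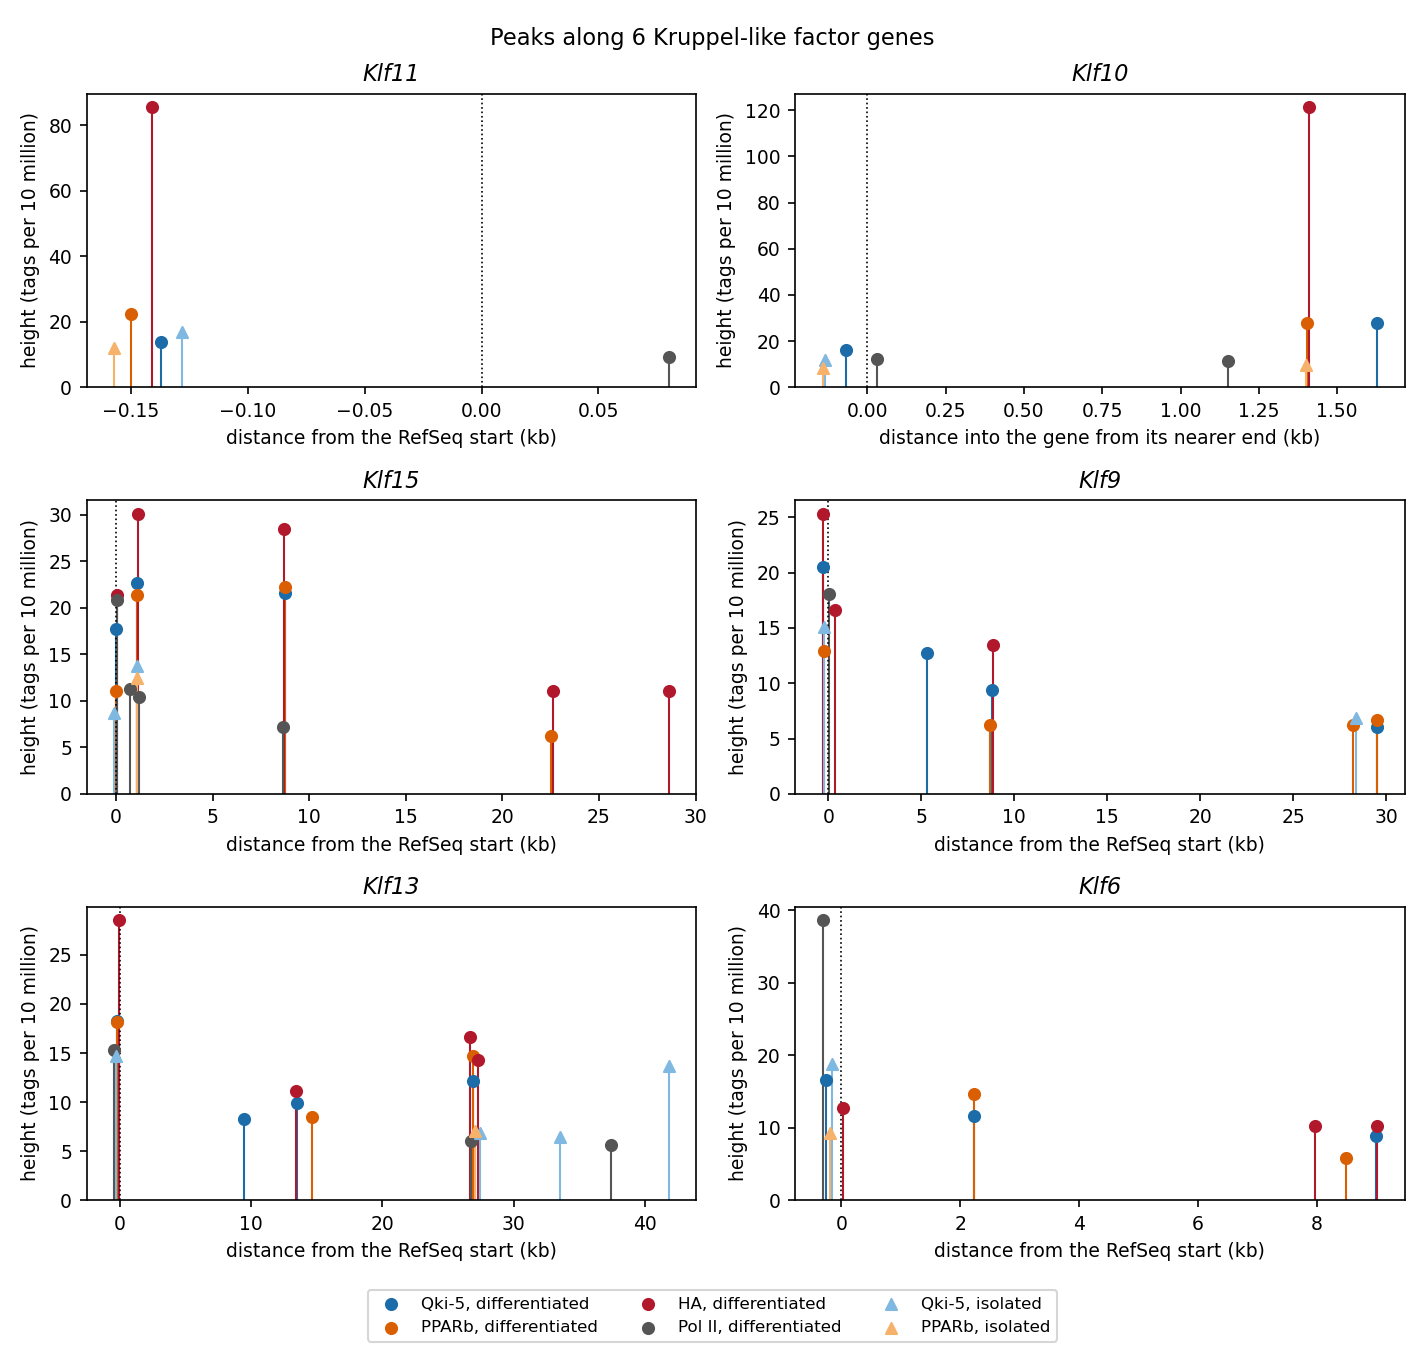
Height (tags per 10000000) against distance (kb) from the RefSeq start, or from the nearer gene end for Klf10, at 6 members. Circles are differentiated and triangles isolated libraries, 1 library each. At Klf11 and Klf10 the receptor peaks stack at nearly the same position, HA far above the others.

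Overlapping peaks were merged into 47 sites, of which 23 held a peak of 1 library, 9 of 2, 3 of 3, 4 of 4, 7 of 5 and 1 of all 6. The lists of a cell kind share their input library. In differentiated cells 14 of the 22 member Qki-5 peaks overlapped a PPARb peak (63.6%, 95% exact Clopper-Pearson interval 40.7% to 82.8%), beside 65.1% of the whole Qki-5 list. Read from the PPARb side, 14 of 23 overlapped Qki-5 (60.9%), beside 74.4%. For Pol II, 7 of 15 member peaks overlapped Qki-5 (46.7%, interval 21.3% to 73.4%), beside 73.8% of the whole list. In isolated cells 4 of 16 Qki-5 peaks overlapped PPARb (25%, beside 12.7%), and 4 of 6 PPARb peaks overlapped Qki-5 (66.7%, beside 76.3%). Several of these peaks come from the same gene and all from 1 library a list, so the intervals cover counting error only and the shares are a description.

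In differentiated cells 14 of 23 member PPARb peaks overlapped an HA peak (60.9%, beside 73.5% of the whole PPARb list). Of member HA peaks, 14 of 25 overlapped PPARb (56%, beside 64.6%), and Klf6 had no overlapping pair. At sites with both receptor antibodies in differentiated cells, HA stood above PPARb in height by a median ratio of 1.48 over 19407 overlapping pairs. Klf10 had a ratio of 4.33, reached by 0.0876% of pairs, and Klf11 had 3.83, reached by 0.186%. Klf4 and Klf3 had 2.62 and 2.46. The 4 shared Klf15 sites ran from 1.28 to 1.93, and the Klf13 start had 1.57. The ratio compares 2 antibodies and is not an amount of receptor. Klf11 was also high for PPARb over Qki-5, at 1.62, which 0.921% of pairs reached.

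**Figure D5:**
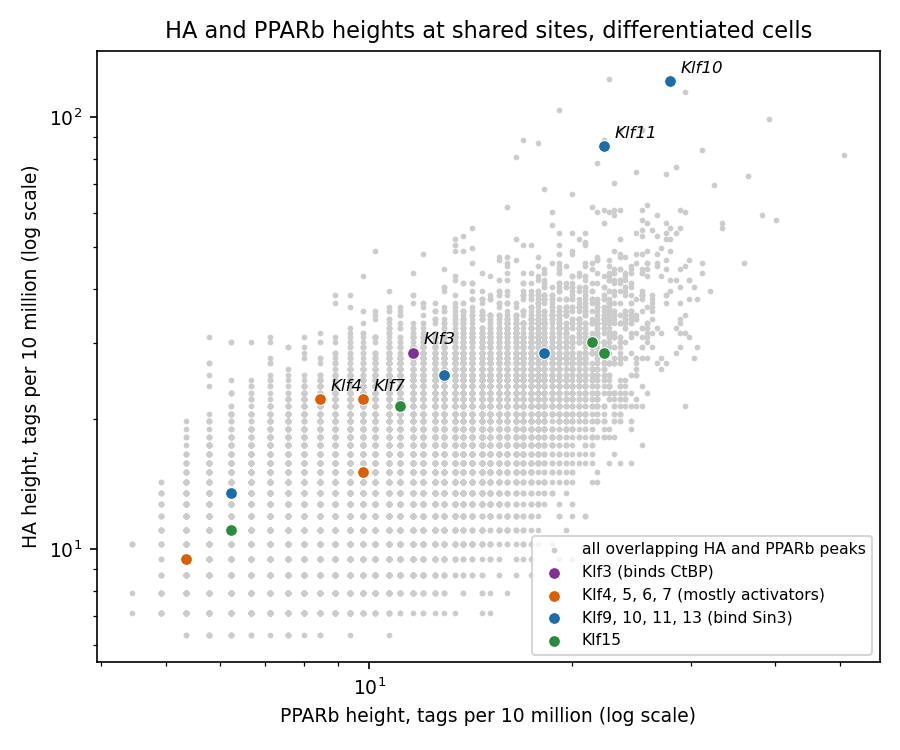
HA height against PPARb height (log scales, tags per 10000000) at overlapping peaks of differentiated cells, gray for all pairs and colored for the members. Klf10 and Klf11 lie near the top edge, at HA heights of 121.2 and 85.5.

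Between cell kinds, Qki-5 heights at overlapping peaks were higher in differentiated cells by a median ratio of 1.51 over 5819 pairs. Klf11 (0.817) and Klf6 (0.883) went the other way, and the Klf15 start (2.03) was the highest of the members. At Klf11 the 95% height intervals were 8.95 to 20.4 in differentiated and 11.9 to 23.4 in isolated cells. At Klf6 they were 11.2 to 23.7 and 13.5 to 25.5. Both pairs of intervals overlapped. Overlap of 2 separate intervals is no test of a ratio, and whether either reversal exceeds counting error was not tested. At the Klf15 start the differentiated interval began at 12.1, below the isolated upper end of 13.6. For PPARb the median ratio was 1.76 over 1034 pairs. Klf10 stood at 2.86, Klf13 at 2.08, Klf11 at 1.86 and Klf15 at 1.71. With 1 library each, these are differences between libraries.

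Of the 16 other Kruppel-like and Sp genes, 8 each had a Qki-5, PPARb or HA peak in differentiated cells and 9 had Pol II. The shares of all protein-coding genes were 61.2%, 57.3%, 60.6% and 47.5%. In isolated cells 8 had Qki-5 and 2 had PPARb (35.7% and 7.57% of all genes). Klf8, Klf14, Klf17, Sp5 and Sp6 had a peak in 0 lists. The tallest PPARb peaks of this group were at Sp4 (15.6), Sp2 (13.4) and Sp3 (12.5), below those of Klf10, Klf11, Klf13 and Klf15. Of 12 cofactor genes, all had peaks in the 4 differentiated lists (44.7% of all genes). Isolated Qki-5 peaks were at 11 of them and isolated PPARb peaks at 2 (35.7% and 7.57% of all genes). Fbxw7, a ubiquitin ligase subunit, led with PPARb at 22.7 and isolated Qki-5 at 22.9 (rank 39), followed by Ctbp1 at 19.6 and by Sin3a and Crebbp, tied at 17.8. The median span was 20813 bp for the members, 10304.5 bp for the other family genes, 61123.5 bp for the cofactors and 17170 bp for all genes, and a longer window holds more peaks.

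The genes most like Klf15 and Klf13 were found by Euclidean distance between the percentile ranks of their tallest peaks over the 6 libraries. For Klf15 they were Esyt2 (distance 7.28 percentile points) and Cd81 (7.66). For Klf13 they were Rev1 (5.29) and Aamdc (5.40).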

How the data were processed

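The authors called peaks per library with findPeaks of HOMER (factor style), per the file headers. Peaks are 200 bp wide and passed a false discovery rate of 0.001, a 4-fold excess and Poisson p of 0.0001 over input, and a 4-fold excess over the local 10000 bp. The submitters' processing notes name HOMER 4.10.1, SAMtools 1.8, Bowtie 1.2.2, Trim Galore 0.4.4 and the build mm10. Tag directory names show that duplicates were removed, and 2 names (differentiated Qki-5 and isolated input) hold the word merge, with no statement of what was joined. The signal used is the authors' deposited normalized tag count. The deposited peak score was not used, and the deposited fold over input (a ratio) only in an alternative. Tags were computed as height times library total, and lay within 1 of the deposited tag count for 100% of peaks in the 4 lists that give unscaled counts.

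Peaks on chromosomes 1 to 19, X and Y were assigned to RefSeq GRCm38 genes with Python 3.11.15, pandas 2.3.3 and SciPy 1.17.1. Sites are overlapping peaks merged at 1 bp or more, so peaks of a site can be joined only through another peak. The script was tested on simulated peaks. Exon positions were not used here, so no peak is placed in an exon or intron. The members and gene lists were chosen with earlier results of these data known. All 10 members are named; of each other list, the 3 genes with the tallest differentiated PPARb peak; and the 2 genes most like each of 3 members, of which those for Klf10 are not reported here. Alternatives changed the window, fold, list length and overlap.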

Additional observations from a re-analysis of the deposited data

How the results depend on the processing

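Of 62 alternative values, 45 stayed within 1.5 times the reported count and 17 moved. Taking the gene span alone left 4 members with isolated Qki-5 and 3 with isolated PPARb peaks, and 12 differentiated Qki-5, 9 isolated Qki-5 and 3 isolated PPARb peaks. Requiring 8-fold over input left isolated Qki-5 at 4 members (6 peaks) and isolated PPARb at 1 member (1 peak, at Klf6, 11.29-fold). The isolated PPARb peaks at Klf10 (7.97 and 6.64), Klf11 (4.87), Klf13 (4.32) and Klf15 (7.64) fell below 8-fold. Overlaps of Qki-5 with PPARb were then at 9 of 17 peaks in differentiated and 1 of 6 in isolated cells. Keeping the tallest 1000 peaks of each list left members numbering 1 (Qki-5), 3 (PPARb), 2 (HA) and 4 (Pol II) in differentiated cells, and 3 (isolated Qki-5). Ties in height at the cut were broken by peak name. Klf13 was dropped in this way from isolated Qki-5 (14.7, tied rank 957) and isolated PPARb (7.07, tied rank 909). Lists run from 1391 peaks (isolated PPARb) to 30175 (differentiated Qki-5), so these counts cannot be compared between lists. Shares of all genes under the alternatives were not computed. Sites with all 4 differentiated antibodies numbered 6 of 45 by overlap and 11 of 34 with centres within 500 bp. No paired analysis was possible because each group has 1 library. The isolated PPARb library had the smallest share of tags in peaks (0.116%), and a gene without a peak there is not shown to be unbound.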

Other observations

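Some isolated-cell peaks lay deep inside members where no differentiated library had an overlapping peak. At Klf13 an isolated Qki-5 peak of 13.7 (rank 1290 of 8375) lay 41826 bp after the start, inside the noncoding gene Gm27252. Another of 6.41 (rank 6924) lay 33541 bp after the start. At Klf7 isolated Qki-5 peaks of 7.33 (rank 5816) and 5.5 (rank 7966) lay 32982 and 88792 bp after the start. All but the peak of 13.7 were thus low in their list. These peaks were picked out after their values were seen.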
